A study of Mus musculus with 65 samples.

Results

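Pluripotency factors and enzymes of DNA methylation were followed from neuromesodermal progenitors (NMPs) to sorted ventral neural progenitors. The set held 10 of the 25239 genes in the table of normalised reads and was chosen by gene name, with earlier results of these data known. Its members were the pluripotency genes Pou5f1, Utf1 and Sall4, the DNA methyltransferases Dnmt1, Dnmt3a and Dnmt3b, the methyltransferase cofactor Uhrf1, and the methylcytosine dioxygenases Tet1, Tet2 and Tet3. Each was read on day 3, day 4, day 5 and day 6 in every group, and all 10 passed the limit on low values used for testing.

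Pou5f1 (OCT4) is a homeodomain factor without which pluripotent cells do not keep their state, and it is shut off as cells leave pluripotency. UTF1 is a chromatin-associated protein of pluripotent cells, and SALL4 is a zinc finger factor of pluripotent cells that is also used in early embryonic tissues. DNMT3A and DNMT3B place new methyl groups on cytosines in CpG pairs, DNMT1 copies the marks to the new strand at replication, and UHRF1 brings DNMT1 to hemimethylated DNA. TET enzymes oxidise methylcytosine, which opens the way to its loss, and TET1 is the family member best known from embryonic stem cells.

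The cells were HM1 mouse embryonic stem (ES) cells, grown on feeder fibroblasts that were removed by plating before differentiation. All groups came from this 1 wild-type line. All groups received bFGF and LGK (a blocker of WNT secretion), then bFGF with CHIR99021 (a WNT pathway agonist), SB-431542 and DMH1 (blockers of TGF-beta and BMP signalling) until day 3. The 3 NMP libraries were taken on day 3 before retinoic acid and SAG were given. From day 3 all cultures had 100 nM retinoic acid together with 0, 10, 100 or 500 nM SAG, an agonist of the hedgehog transducer Smoothened. Cells were fixed, stained for transcription factors inside the cell and sorted into the progenitor types p0-1 (0 or 10 nM SAG), p2 (10 or 100 nM), pMN (100 or 500 nM) and p3 (100 or 500 nM), which are listed here from dorsal to ventral. The 65 libraries formed 25 groups, with 3, 16, 24 and 22 libraries on the 4 days, and 8 conditions on each of the later days. In 2 groups of day 4, p2 at 10 nM and p3 at 100 nM, only 1 library was present. Day 3 had neither SAG nor retinoic acid, and how its cells were sorted is not given in the sources used here, so time and treatment cannot be told apart in comparisons with NMPs. In bulk samples of this kind, fewer cells that express a gene and less RNA per cell cannot be told apart either.

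Libraries held 7615114 to 13484815 assigned reads and 9718 to 15963 genes with a read. The median number of genes detected was 15429 on day 3 and 13174, 12707 and 12674 on the later days. The 5 libraries with the fewest genes were all from 100 nM SAG: day 4 p3 replicate 3 (9718 genes), day 6 p3 replicate 2 (10338), day 6 p2 replicate 3 (10541) and replicate 1 (11118), and day 5 p3 replicate 2 (10571). Members that lost or gained a call without them, an alternative chosen after seeing the data, are given with the value they then had. The labels were checked against markers. The NMP genes T, Nkx1-2, Cdx2 and Fgf8 were all detected in the 3 day 3 libraries, and all 4 fell by day 6. Nkx2-2, which marks p3, averaged 254.8 ± 90.89 normalised reads in p3 of days 5 and 6 (SD, n = 11), 15.8 ± 30.9 in pMN (n = 11) and 0.56 ± 1.61 in p2 (n = 12), and was at 0 in all 12 p0-1 libraries. Olig2 averaged 3574 ± 1322 in pMN, 823.3 ± 488.8 in p3, 423.1 ± 516.1 in p2 and 8.63 ± 29.59 in p0-1. Nkx6-1 averaged 9.63 ± 21.27 in p0-1 and 361.9 to 591.2 in the other types.

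All 10 genes lie at a single place in mm10 with no overlapping gene. Their spans, with the strand and the summed length of exons, are chr17:35506032-35510777 (plus, 1443 bases) for Pou5f1, chr7:139943856-139945112 (plus, 1160) for Utf1 and chr2:168748332-168767201 (minus, 5073) for Sall4. The methyltransferase genes are at chr9:20907206-20959888 (minus, 6325) for Dnmt1, chr12:3806980-3914443 (plus, 9947) for Dnmt3a and chr2:153649449-153687730 (plus, 4327) for Dnmt3b, and Uhrf1 is at chr17:56303337-56323486 (plus, 3651). The dioxygenase genes are at chr10:62804570-62887324 (minus, 14354) for Tet1, chr3:133463677-133544390 (minus, 9205) for Tet2 and chr6:83362374-83456392 (minus, 11741) for Tet3. Reads were counted per gene over exons, so levels of different genes are compared below only per kilobase of exon. This length joins the exons of all transcripts of a gene, so ranks between genes and the sign of a ratio depend on it.

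RefSeq promoters of the GRCm38 build (the same assembly as mm10) were found for 9 of the 10 members (Sall4 is named only). The sequences shown are the 250 bases before the start of the genes with the largest changes: the pluripotency genes Pou5f1 and Utf1, the methyltransferase gene Dnmt3b and the dioxygenase gene Tet2. Each is written 5′ to 3′ on the strand of its gene, and capitals mark CG pairs, the substrate of the enzymes in the set.
Pou5f1 (chr17:35505782-35506031, plus): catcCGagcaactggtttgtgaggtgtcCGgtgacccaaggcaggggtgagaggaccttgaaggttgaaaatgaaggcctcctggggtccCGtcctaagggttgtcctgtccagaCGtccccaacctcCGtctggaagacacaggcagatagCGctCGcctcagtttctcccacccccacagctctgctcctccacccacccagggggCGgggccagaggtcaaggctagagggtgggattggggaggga
Utf1 (chr7:139943606-139943855, plus): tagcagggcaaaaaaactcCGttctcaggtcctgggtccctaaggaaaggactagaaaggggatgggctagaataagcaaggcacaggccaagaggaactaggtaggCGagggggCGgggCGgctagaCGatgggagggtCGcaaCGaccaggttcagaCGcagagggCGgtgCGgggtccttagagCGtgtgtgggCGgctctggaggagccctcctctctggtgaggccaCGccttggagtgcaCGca
Dnmt3b (chr2:153649199-153649448, plus): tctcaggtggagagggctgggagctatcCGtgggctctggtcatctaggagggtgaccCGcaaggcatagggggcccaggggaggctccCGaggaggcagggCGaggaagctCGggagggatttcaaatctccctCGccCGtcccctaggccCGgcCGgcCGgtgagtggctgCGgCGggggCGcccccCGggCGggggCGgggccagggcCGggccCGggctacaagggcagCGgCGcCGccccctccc
Tet2 (chr3:133544391-133544640, minus): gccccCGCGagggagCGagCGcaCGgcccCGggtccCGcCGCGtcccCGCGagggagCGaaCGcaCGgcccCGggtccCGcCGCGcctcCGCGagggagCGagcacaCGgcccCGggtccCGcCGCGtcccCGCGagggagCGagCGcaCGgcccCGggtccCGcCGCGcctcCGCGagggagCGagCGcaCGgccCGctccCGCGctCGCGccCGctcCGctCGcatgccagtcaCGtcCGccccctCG
The Tet2 sequence held 51 CG pairs, and 0.067% of 32841 promoters of this length held as many. At the starts of the gene models, Dnmt3a held 38 CG pairs (1.88% of promoters held as many) and Dnmt3b 21 (16.4%). The promoters of Utf1 and Pou5f1 held 14 (29.4%) and 8 (43.0%), and the median promoter held 6. Several members have more starts in the table. Those of Dnmt1 held 2 CG pairs at the outermost and 26 and 7 at the inner starts, an inner start of Uhrf1 held 30 against 10 at its outermost, and inner starts of Dnmt3a held 40 and 15. The octamer ATGCAAAT, a sequence bound by POU factors, was searched on both strands and was in none of these promoters, against 1.6% of all of them. The GC box GGGCGG, present in 32.7% of all promoters on either strand, occurred 4 times in Utf1, 3 times in Dnmt3b and 1 time each in Pou5f1 and Tet2. Such matches describe letters and not bound sites, and methylation itself was not measured.

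A gene was called as changed where limma, run over 13964 genes on log2(normalised reads + 1), gave a Benjamini-Hochberg adjusted p below 0.01 with a change over 2-fold. Changes below are on that log2 scale, with the standard error (SE). They understate those of genes that are low in all libraries of a group. Where only some libraries of a group are at or near 0, they can exceed the change in mean reads. From NMPs to day 6, 5 of the 10 members were called: Pou5f1, Utf1, Sall4 and Dnmt3b fell and Tet2 rose, where 7.54% of all tested genes were called. From NMPs to day 4, 2 members fell (Pou5f1 and Utf1), against 3.49% of all genes. From day 4 to day 5, 1 member rose (Tet2), against 4.3% of all genes. From day 5 to day 6 no member was called with limma, against 0.852% of all genes. At an unadjusted p under 0.05, 5 members passed for that last step, beside 16.3% of all genes. With an adjusted p below 0.05 and no limit on the fold, the same number passed, against 3.95% of all genes, and edgeR and DESeq2 called 0. The changes from NMPs to day 4 and to day 6 share the same 3 NMP libraries. The median change of all tested genes was -0.40 from NMPs to day 4 and -0.36 to day 6, and 0.014 and 0.004 for the later steps. Under quantile normalisation the medians of the comparisons with NMPs were -0.006 and -0.051.

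**Figure D1:**
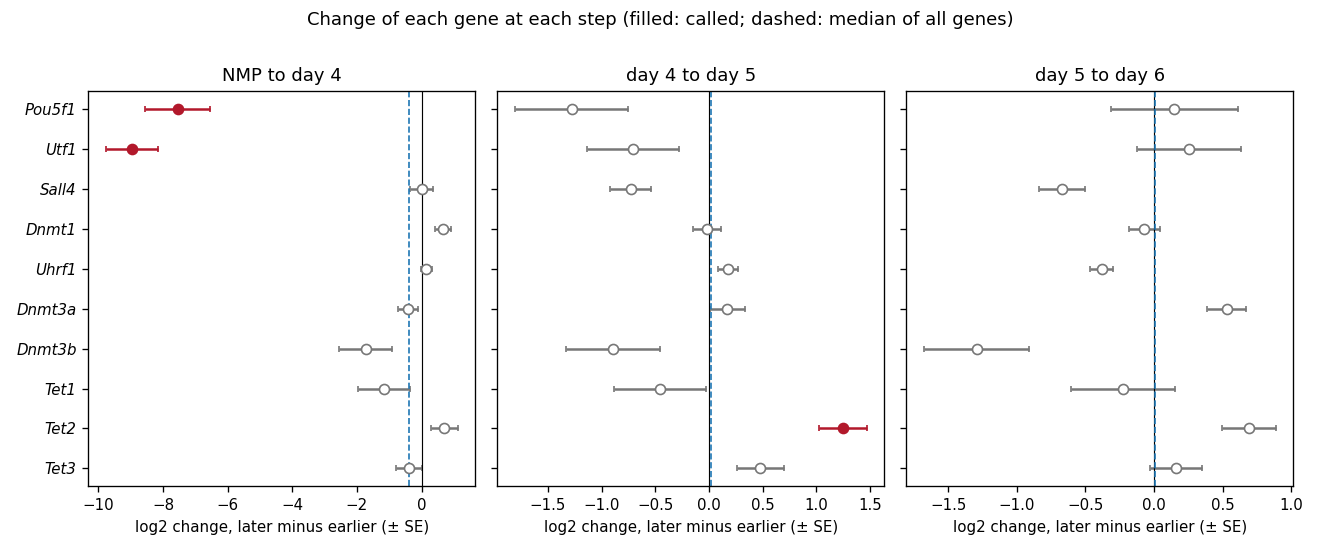
Log2 change of each member with its SE (horizontal axis) from NMPs to day 4, from day 4 to day 5 and from day 5 to day 6. Filled red points passed the call rule and dashed lines mark the median change of all tested genes. Pou5f1 and Utf1 lay at -7.55 and -8.96 in the earliest step, Tet2 at 1.25 in the middle step, and no point is filled in the last.

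Pou5f1 had 730.8, 1374 and 345.2 normalised reads in the 3 NMP libraries. On day 4 its lowest, median and highest values in 16 libraries were 0, 1.36 and 67.58, with 8 libraries at 0. The ranges did not overlap, and the largest day 4 value, 67.58, was in replicate 2 of p0-1 at 10 nM. By condition, the smallest fall from NMPs to day 4 was in pMN at 500 nM (-4.52). It was -5.73 in p0-1 at 10 nM and -6.57 in p0-1 at 0 nM. Pou5f1 was at 0 in 18 of 24 libraries on day 5, with a highest value of 8.316, and in 15 of 22 on day 6, with a highest value of 14.27. All 11 p3 libraries of days 5 and 6 were at 0. Against a floor of 3 reads per library, the level there was at least 266-fold lower than the NMP mean. The change from NMPs to day 4 was -7.55 (SE 0.99, adjusted p = 1.33e-07 by limma), and to day 6 it was -8.68 (adjusted p = 8.77e-10). Under DESeq2, the earlier of these gave an adjusted p of 0.0103. After day 4, Pou5f1 was -1.28 from day 4 to day 5 (adjusted p = 0.11) and was lower in 5 of 8 conditions and higher in 2.

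Utf1 had 938.3, 914.8 and 623.7 normalised reads in NMPs. On day 4 it was at 0 in 13 of 16 libraries, and the other 3 held 52.53 (p0-1 at 0 nM, replicate 2), 27.2 (p2 at 100 nM, replicate 3) and 1.23 normalised reads. All 24 libraries of day 5 were at 0, at least 226-fold below the NMP mean against the floor of 3 reads per library. On day 6 a single library, replicate 3 of p0-1 at 0 nM, held 69.96 normalised reads and the other 21 were at 0. No p3, pMN or p2 library of days 5 and 6 held a read of Utf1. The fall from NMPs was -8.96 to day 4 (SE 0.81, adjusted p = 3.22e-12) and -9.41 to day 6 (adjusted p = 1.38e-13) by limma. DESeq2 gave an adjusted p of 0.37 and 0.331 for these changes. In the plot of members by day, the panels of both genes separate day 3 from all later libraries.

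**Figure D2:**
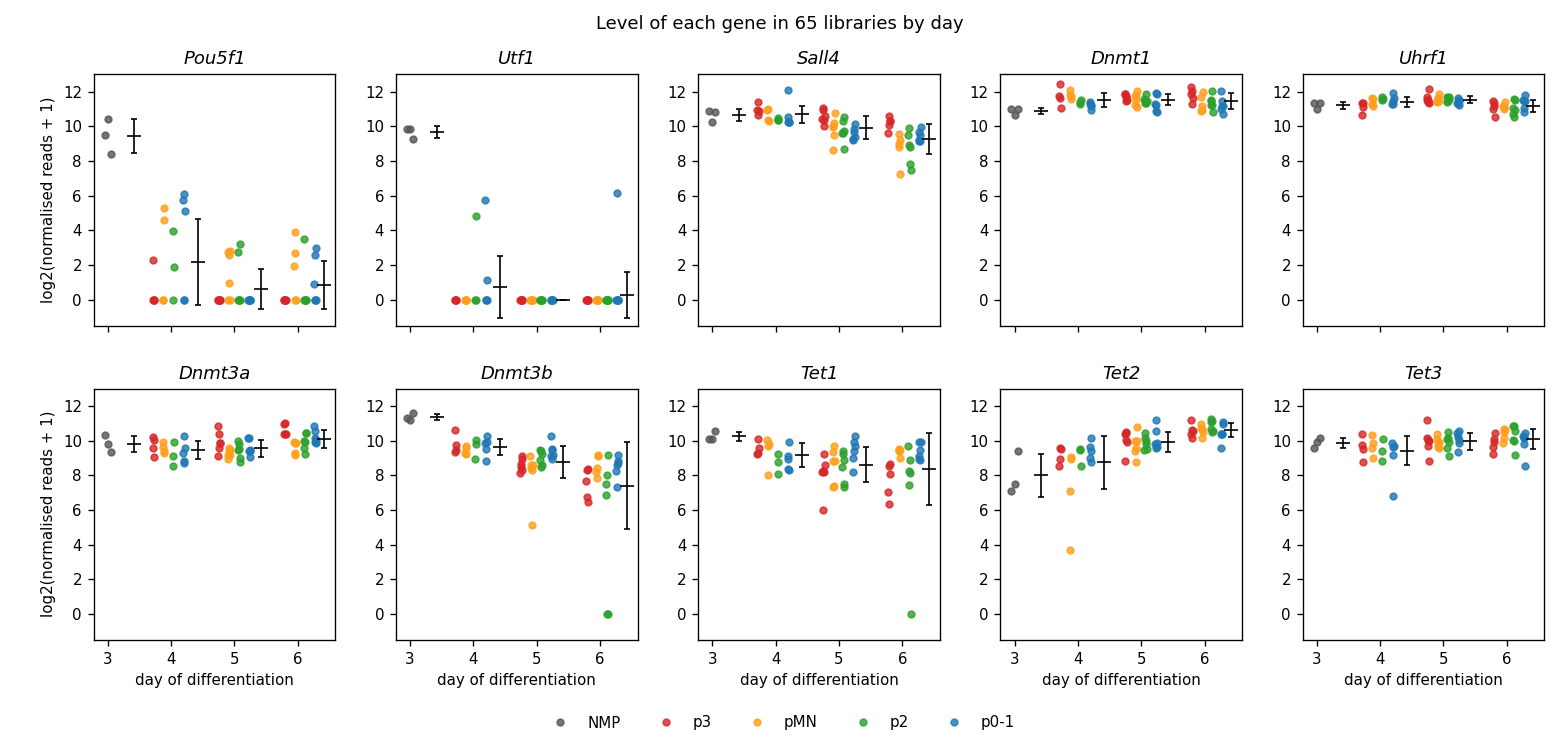
Log2(normalised reads + 1) of the 10 members (vertical axis) in each of the 65 libraries by day (horizontal axis), coloured by cell type, with black marks for the mean ± SD of each day. Pou5f1 and Utf1 dropped to or near 0 after day 3, Dnmt3b declined from a mean of 2657 to 291.6 normalised reads, and Tet2 climbed from 326.8 to 1633.

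Sall4 did not share this early loss. It had 1922, 1225 and 1786 normalised reads in NMPs and a lowest, median and highest value of 1215, 1454 and 4415 on day 4, so that the ranges overlapped widely. The value of 4415 was replicate 1 of p0-1 at 10 nM, and no other day 4 library exceeded 2668. The change from NMPs to day 4 was 0.005, with a 95% interval of -0.72 to 0.73. On day 5 the values were 401.1, 1006 and 2122, and on day 6 they were 152.7, 660.9 and 1563. Sall4 was lower in all 8 conditions at both later steps, but unevenly. The average was -0.73 from day 4 to day 5 (SE 0.19, adjusted p = 0.00707 by limma) and ran from -1.112 to -0.125 by condition. From day 5 to day 6 it was -0.67 (SE 0.17, adjusted p = 0.0123 by limma). That step ran from -1.911 in pMN and -1.61 in p2 (500 and 100 nM) to -0.038 in p0-1 and -0.037 in p3 (0 and 500 nM), which hardly changed. Neither average reached 2-fold, and the former step counts with Tet2 among the members at an adjusted p below 0.05 whatever the fold (2 of 10, against 12.3% of all genes). Across the course from NMPs to day 6 the fall of -1.39 was called (SE 0.35, adjusted p = 0.0037). That call was lost when any of the 3 NMP libraries was left out, with adjusted p = 0.0522 without replicate 1, 0.0104 without replicate 2 and 0.0372 without replicate 3.

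The enzymes that maintain methylation were expressed at every stage. Dnmt1 had 2049, 1641 and 2023 normalised reads in NMPs, and its mean ± SD was 3056 ± 899.7 on day 4 (n = 16), 3035 ± 650.8 on day 5 (n = 24) and 2917 ± 953.5 on day 6 (n = 22). Its day 4 mean was above the NMP mean in all 8 conditions, but the change of 0.66 (95% interval 0.17 to 1.15) had an adjusted p of 0.103. Uhrf1 had 2573, 2031 and 2566 normalised reads in NMPs and means of 2779 ± 539.9, 3013 ± 438.6 and 2372 ± 550.4 on days 4, 5 and 6. From day 5 to day 6 Uhrf1 was lower in 7 of 8 conditions, by a log2 change of -0.38 (SE 0.085, adjusted p = 0.00335), short of 2-fold. As both genes serve replicating cells, 14 DNA replication genes were read beside them, and 0 of the 14 were called from NMPs to day 6. The median change of the 14 was 0.062 beside -0.357 for all genes, and their summed level had a median of 25300 normalised reads on day 3 and 34100, 31700 and 28300 on the later days.

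Dnmt3b was the methyltransferase gene that fell. It had 2543, 2365 and 3062 normalised reads in NMPs, and on day 4 its lowest, median and highest values were 448.3, 792.5 and 1529, so that all 16 libraries lay below all 3 NMP libraries. The corresponding values were 33.81, 474.6 and 1217 on day 5 and 0, 295.9 and 576.9 on day 6. The change to day 4 was -1.72 (SE 0.82, adjusted p = 0.26) and was not called, while all 8 conditions were lower. It was called in 4 of 77 other fits, with adjusted p = 0.000607 for the compared libraries alone, 0.0044 with array weights and 0.00289 without the 5 libraries with the fewest genes. Dnmt3b was also lower from day 4 to day 5 in 7 of 8 conditions (-0.89, adjusted p = 0.195) and from day 5 to day 6 in 7 of 8 (-1.29, SE 0.38, adjusted p = 0.0412). From NMPs to day 6 it fell by 3.91 on the log2 scale (SE 0.79, adjusted p = 0.000297), with adjusted p = 0.0203 in the fit of the compared libraries alone. Both libraries at 0 were day 6 p2 replicates 1 and 3 (100 nM), and replicate 2 of that group held 573.0 normalised reads. Without that replicate 2, the change from NMPs to day 4 was called as well (-1.72, adjusted p = 0.009), as was that from day 5 to day 6 (-1.68, adjusted p = 4.49e-07). Without the 5 libraries with the fewest genes, which include both libraries at 0, the change from day 5 to day 6 was -0.46 (adjusted p = 0.264).

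Dnmt3a took another course. It had 1259, 883.3 and 655 normalised reads in NMPs, a mean of 744.3 ± 259.8 on day 4, 797.1 ± 317 on day 5 and 1157 ± 418.3 on day 6. The day 6 range of 573.6 to 2100 held all 3 NMP values. From day 5 to day 6 Dnmt3a was higher in all 8 conditions, by 0.53 (SE 0.14, adjusted p = 0.0232), less than 2-fold. From NMPs to day 6 its change was 0.27 with a 95% interval of -0.33 to 0.86.

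Per kilobase of exon, Dnmt3b had the highest level of the 3 methyltransferase genes in 3 of 3 NMP libraries and Dnmt1 had it in all 16, 24 and 22 libraries of the later days. Of the summed level of the 3 genes, Dnmt3b made up 60.8% ± 4.06 on day 3 and 26.1% ± 8.53, 17.2% ± 7.42 and 11% ± 7.25 on the later days. Dnmt1 made up 29.8% ± 1.21, 63.9% ± 7.84, 70.8% ± 8.22 and 70.6% ± 8.94, and Dnmt3a 9.38% ± 3.12, 10.0% ± 3.39, 12% ± 4.3 and 18.4% ± 5.98. The mean share of Dnmt3a was below that of Dnmt3b on days 3 to 5 and above it on day 6.

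The log2 ratio of Dnmt3a to Dnmt3b within a library, per kilobase, was -2.74 ± 0.611 on day 3 and -1.353 ± 0.749, -0.401 ± 1.058 and 1.302 ± 1.964 on the later days. It was below 0 in 3 of 3, 15 of 16, 18 of 24 and 4 of 22 libraries. Each step was tested with a two-sided permutation test of the difference in means, adjusted over 6 tests. The test shuffled libraries as separate units, although several cell types came from the same dish in the study's design. Its p-values thus measure the spread among sorted libraries and not that among differentiations. The ratio was higher by 1.387 from day 3 to day 4 (exact permutation over 969 arrangements, adjusted p = 0.0155), by 0.952 from day 4 to day 5 (permutation test, adjusted p = 0.00256) and by 1.703 from day 5 to day 6 (permutation test, adjusted p = 0.00084). Without the 5 libraries with the fewest genes, the last of these was 1.052. The earliest of these lost its call without NMP replicate 2 (1.453, adjusted p = 0.0588 by exact permutation) or replicate 3 (1.054, adjusted p = 0.098 by exact permutation).

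**Figure D3:**
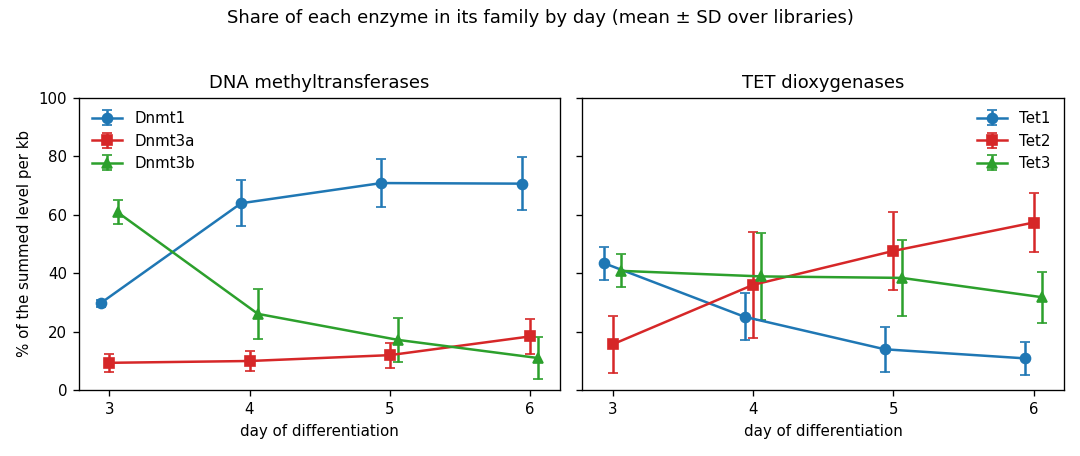
Share of the summed level per kilobase of exon (vertical axis, percent) held by each methyltransferase gene and each TET gene on days 3 to 6 (horizontal axis), as mean ± SD over 3, 16, 24 and 22 libraries. Dnmt3b went from 60.8% to 11% and Tet1 from 43.4% to 10.9%, while Dnmt1 reached 70.6% and Tet2 57.3%.

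Among the dioxygenases, Tet2 rose. It had 133.1, 180.0 and 667.2 normalised reads in NMPs, and lowest, median and highest values of 12, 521.6 and 1149 on day 4, 428.3, 972.2 and 2290 on day 5 and 755.4, 1529 and 2427 on day 6. All 22 libraries of day 6 lay above all 3 NMP libraries. The low value of 12 was day 4 pMN replicate 2 (100 nM). Tet2 was higher on day 5 than on day 4 in all 8 conditions, by 1.25 on average (SE 0.22, adjusted p = 6.04e-05 by limma). The call held in all 77 other fits, and with 1 library left out the change ranged from 1.032 to 1.459. By condition the rise was largest in pMN at 100 nM (3.962), whose day 4 group holds the value of 12. The next largest was 1.386 in p3 at 100 nM, and the smallest was 0.225 in p0-1 at 10 nM. The step to day 6 was 0.69 (SE 0.20, adjusted p = 0.0308), higher in 7 of 8 conditions. From NMPs to day 6 the rise was 2.64 (SE 0.41, adjusted p = 2.6e-06), and this call also held in all 77 other fits.

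Tet1 had 1109, 1079 and 1485 normalised reads in NMPs, and lowest, median and highest values of 253.5, 598.6 and 1067 on day 4, so that the ranges did not overlap. They were 61.62, 450.4 and 1205 on day 5 and 0, 476.7 and 978.4 on day 6. The change to day 4 was -1.17 (adjusted p = 0.504) with all 8 conditions lower, and the change to day 6 was -1.85 (95% interval -3.43 to -0.27, adjusted p = 0.126). Neither passed the call rule. With array weights, which count noisy libraries less, the change to day 6 was called (-1.53, adjusted p = 0.00166). Tet3 had 762.2, 951.9 and 1110 normalised reads in NMPs and means of 766.8 ± 316.3, 1048 ± 384 and 1157 ± 392.3 on days 4, 5 and 6, with a change of 0.25 from NMPs to day 6 (95% interval -0.55 to 1.04).

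In the TET family, Tet1 made up 43.4% ± 5.57 of the level per kilobase on day 3 and 25.1% ± 8.03, 14% ± 7.6 and 10.9% ± 5.59 on the later days. Tet2 made up 15.7% ± 9.64, 36.0% ± 18.1, 47.6% ± 13.4 and 57.3% ± 10.0, and it was the highest of the family in 0 of 3, 7 of 16, 17 of 24 and 20 of 22 libraries. The share of Tet3 was 40.8% ± 5.6 on day 3 and 31.8% ± 8.72 on day 6. The log2 ratio of Tet3 to Tet1 was -0.09 ± 0.181, 0.545 ± 0.766, 1.58 ± 1.145 and 1.802 ± 1.473 on the 4 days. It was higher on day 5 than on day 4 by 1.035 (permutation test, adjusted p = 0.00256), and neither the step before (0.635, adjusted p = 0.218 by exact permutation) nor the step after (0.222, adjusted p = 0.583 by permutation test) passed.

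**Figure D4:**
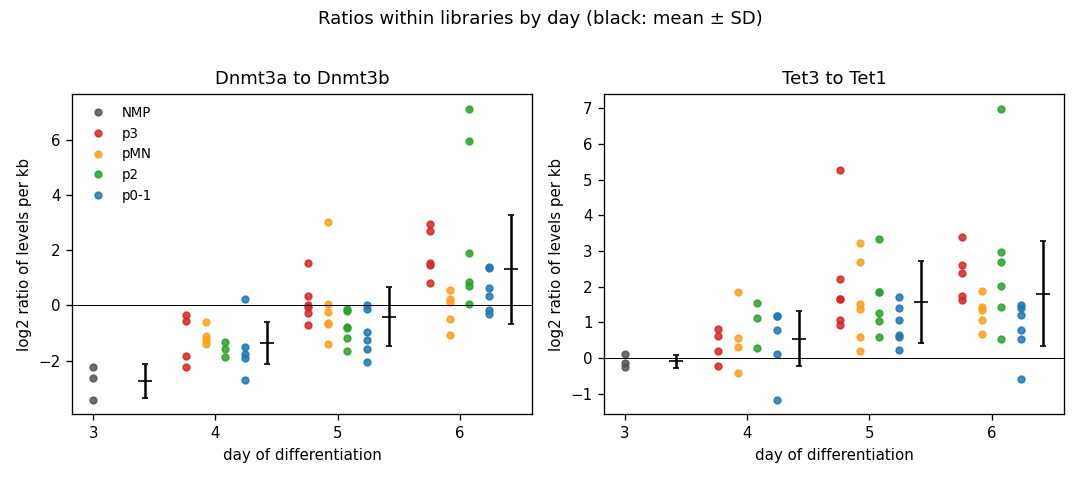
Log2 ratio per kilobase of exon (vertical axis) of Dnmt3a to Dnmt3b and of Tet3 to Tet1 in each library by day (horizontal axis), with the mean ± SD of each day. The mean of the former ratio went from -2.74 to 1.302 and crossed 0 between day 5 and day 6, and that of the latter went from -0.09 to 1.802.

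Cell types were compared on days 5 and 6, averaging over both days and both SAG concentrations, with 11 libraries each for p3 and pMN and 12 each for p2 and p0-1. Sall4 was the member called between p3 and other types. Its lowest, median and highest values were 779.2, 1298 and 2122 normalised reads in p3, 152.7, 728.5 and 1735 in pMN, 175.6, 744.8 and 1489 in p2 and 561, 699.2 and 1119 in p0-1. The p3 values were the highest as a group and overlapped those of the other types. Sall4 was higher in p3 than in pMN by 1.13 (SE 0.25, adjusted p = 0.00542), the only call of 10 members, against 0.695% of all genes. It was higher in p3 than in p2 by 1.14 (SE 0.24, adjusted p = 0.00226), also the only call, against 1.27% of all genes. The difference from p0-1 was 0.87 (95% interval 0.39 to 1.35, adjusted p = 0.024), below 2-fold and not called by limma, edgeR or DESeq2, against 1.43% of all genes. At an unadjusted p under 0.05, 3 members passed, beside 15.9% of all genes. Against p0-1, 1 member passed an adjusted p of 0.05 at any fold, against 3.95% of all genes. On day 4, Sall4 had a mean of 2032 ± 450.6 in p3 (n = 4), 1646 ± 422.9 in pMN (n = 4), 1362 ± 65.11 in p2 (n = 3) and 1915 ± 1402 in p0-1 (n = 5).

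The call against pMN was lost without any of 10 libraries: day 5 p3 replicate 3 at both concentrations, day 5 pMN replicate 2 (100 nM) and replicate 1 (500 nM), day 6 p3 replicate 3 (100 nM), replicate 1 and replicate 3 (500 nM), and day 6 pMN replicate 1 and replicate 3 (100 nM) and replicate 3 (500 nM). Its weakest value was 0.88 (adjusted p = 0.0697) without day 6 pMN replicate 3 (500 nM), which had the lowest Sall4 value of 152.7. It was also lost in edgeR and when the compared libraries were fitted alone. The call against p2 held without each library in turn, and without the 5 libraries with the fewest genes the difference was 0.93 (adjusted p = 0.0471). In the fit of the compared libraries alone no member was called against p2. The comparisons with p3 share the same 11 p3 libraries. The summed level of 8 neuronal genes ranged from 1240 to 5690 normalised reads in p3, 1290 to 7380 in pMN, 1050 to 6230 in p2 and 240 to 3520 in p0-1, with none at 0 in all libraries of a type. The median change of the 8 was -0.918 in p3 against pMN (-0.088 for all genes) and -0.586 in p3 against p2 (0 for all genes). In each of these comparisons 1 of the 8 was called. Against the direction of that median, Map2, a microtubule protein of neurons, was higher in p3 than in pMN (835.1 ± 677.6 against 80.75 ± 87.89 normalised reads, change 4.59, adjusted p = 9.72e-05). Dcx, another, was lower in p3 than in p2 (35.24 ± 51.97 against 654.6 ± 781.2, change -5.46, adjusted p = 0.00102). Both were named after their values were seen, and the call of Dcx was lost in edgeR and without the 5 libraries with the fewest genes. The part of neuronal RNA in the differences of Sall4 was not tested.

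Dnmt3a had a mean of 1306 ± 500.3 normalised reads in p3, 1014 ± 369.7 in p0-1, 859.9 ± 301 in p2 and 702.8 ± 165.3 in pMN. The difference of p3 from pMN was 0.82 (95% interval 0.40 to 1.24, adjusted p = 0.0262) and lay under 2-fold. With Sall4 it made 2 members at an adjusted p below 0.05 whatever the fold, against 1.56% of all genes. Dnmt3b ran highest in p0-1, at 543.1 ± 265.2, against 309.8 ± 142.9 in p3, 364.1 ± 160.5 in pMN and 359.2 ± 251.7 in p2. Tet1 likewise had its highest mean in p0-1, at 715.7 ± 275.6, against 539.5 ± 219.9 in pMN, 374.4 ± 241.7 in p2 and 286.8 ± 156.4 in p3. The difference in Tet1 between p3 and p0-1 was -1.44 (SE 0.54, adjusted p = 0.136) and was called without day 6 p2 replicate 3 (100 nM), where Tet1 was at 0 (-1.44, adjusted p = 0.00412), and by DESeq2 with all libraries (-1.33, adjusted p = 0.00778). Tet2 varied little between types, with means of 1313 in p3, 1229 in pMN, 1433 in p2 and 1326 in p0-1, as did Uhrf1, with 2759, 2704, 2650 and 2717. Differences in Dnmt3b from p2 depended on day 6 p2 replicate 2 (100 nM). Without it Dnmt3b was called higher in p3 (1.67, adjusted p = 0.000322) and pMN (1.97, adjusted p = 7.96e-05) and lower in p2 than in p0-1 (-2.57, adjusted p = 7.49e-08), while without the 5 libraries with the fewest genes the difference of p3 from p2 was -0.55 (adjusted p = 0.443). With all libraries, no member was called with limma, edgeR or DESeq2 between pMN and p2 (0.107% of all genes), pMN and p0-1 (0.96%) or p2 and p0-1 (0.322%). At an unadjusted p under 0.05 these comparisons held 2, 1 and 2 members, beside 10.6%, 11.7% and 8.16% of all genes.

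**Figure D5:**
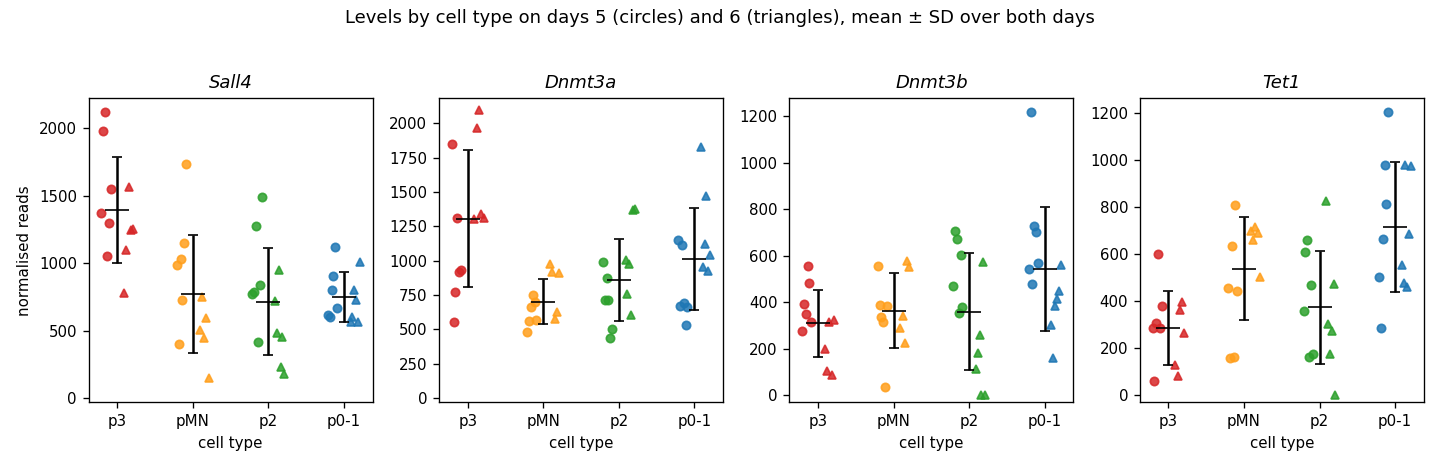
Normalised reads (vertical axes) of Sall4, Dnmt3a, Dnmt3b and Tet1 in p0-1, p2, pMN and p3 (horizontal axes) on day 5 (circles) and day 6 (triangles), with the mean ± SD of 11 or 12 libraries. Sall4 and Dnmt3a had their highest means in p3, at 1392 and 1306, and Dnmt3b and Tet1 in p0-1, at 543.1 and 715.7.

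The same cell type sorted from different SAG concentrations was compared on days 5 and 6. No member was called with limma, edgeR or DESeq2 in 40 tests over the 4 comparisons, in which 0.0143% of all genes were called in p0-1 (10 against 0 nM), 0.0358% in p2 (100 against 10 nM), 0% in pMN (500 against 100 nM) and 0.0286% in p3 (500 against 100 nM). The smallest adjusted p was 0.261 and 3 tests had an unadjusted p under 0.05, all in p2, where 8.18% of all genes did. There Dnmt3b was at -2.44 (95% interval -3.94 to -0.95), Tet1 at -1.97 (-3.45 to -0.49) and Sall4 at -0.79 (-1.45 to -0.13) in 100 against 10 nM. On day 6 at 100 nM, replicates 1, 2 and 3 held 0, 573.0 and 0 normalised reads of Dnmt3b and 275.6, 474.7 and 0 of Tet1. At 10 nM the day 6 values of Dnmt3b were 112.9, 180.0 and 259.1. In the same 3 libraries at 100 nM Dnmt1 had 4283, 2431 and 1787 normalised reads and Dnmt3a 604.8, 1367 and 1374, so neither was absent. Without replicate 2 at 100 nM on day 6, Dnmt3b was called at -3.97 (adjusted p = 1.67e-08), and without the 5 libraries with the fewest genes it was at 0.61 and not called. Of the 40 intervals, 21 lay within a 2-fold shift either way, including all of Dnmt1, Uhrf1, Dnmt3a and Tet3, and 19 did not, such as -0.44 to 2.70 for Tet1 in p3.

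The change from day 4 to day 6 in the ventral types p3 and pMN was tested against that in p2 and p0-1. No member was called with limma, edgeR or DESeq2, against 1.3% of all genes, and 1 had an unadjusted p under 0.05, beside 14.5% of all genes. This was Tet2, at 1.18 (95% interval 0.26 to 2.10, adjusted p = 0.183), while the median of all genes was 0.411, or 0.058 under quantile normalisation. The highest and lowest adjusted p for Tet2 among the other fits were 0.539 without day 4 p3 replicate 3 (100 nM) and 0.0117 without day 4 pMN replicate 3 (100 nM). For Sall4 the difference was 0.066 (95% interval -0.72 to 0.86) and for Dnmt3b 1.02 (-0.77 to 2.81).

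Other genes of the pluripotency network were read from lists chosen by name, also with earlier results known. Of 15 naive pluripotency genes, 6 were tested and 4 fell from NMPs to day 6: Gdf3 (-8.97), a TGF-beta family ligand, Zfp42 (-7.65), the zinc finger protein REX1, and the transcription factors Tfcp2l1 (-6.21) and Klf5 (-5.96). The median of the 6 was -6.08 beside -0.36 for all genes. The summed level of the 15 ranged from 1360 to 2500 normalised reads on day 3, from 4 to 734 on day 4 and from 0 to 215 on day 6. Klf5 lost its call without any of the 3 NMP libraries (adjusted p up to 0.0559) or without day 6 p3 replicate 1 (500 nM), and none of the 4 was called by DESeq2. Nanog, Klf2, Esrrb and 6 others were too low to test. Of 14 primed and general pluripotency genes, 7 were tested and 4 fell, among them Dppa4 (-6.99), L1td1 (-6.48), an RNA-binding protein, and Lin28a (-2.02), which blocks the maturation of let-7. The median of the 7 was -4.41. Like Sall4, Lin28a kept a level on day 4 (1738 ± 507.7 normalised reads) that was no lower than in NMPs (1192 ± 93.65), and it fell later, by 1.55 from day 5 to day 6 (adjusted p = 1.12e-07). Dppa4 lost its call without any of the NMP libraries (adjusted p up to 0.0413).

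Of the 8 POU and SALL paralogs, all were tested and 3 rose from NMPs to day 6, with a median change of 2.09. Pou3f2 (BRN2), a neural POU factor, was at 0 in 2 of 3 NMP libraries and averaged 3434 ± 1942 normalised reads on day 6 (change 10.41, adjusted p = 8.64e-28). Pou3f3 (BRN1) was at 0 in all 3 NMP libraries and averaged 638.6 ± 265.6 on day 6 (adjusted p = 1.12e-11). Sall1, a zinc finger relative of Sall4, went from 403 ± 116.2 to 1799 ± 505.1 (change 2.13, adjusted p = 2.24e-07). These 3 calls held in all 77 other fits, in the direction opposite to Pou5f1 and Sall4.

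Of 24 other readers, cofactors and repair genes of DNA methylation, 21 were tested and 3 rose from NMPs to day 6, with a median change of -0.081. Cxxc4, a CXXC-domain protein known to limit TET2, rose by 6.45 (adjusted p = 2.33e-05), from 1.10 ± 1.91 to 195.3 ± 148.6 normalised reads. Mbd2, a reader of methylated DNA, rose by 1.79 (adjusted p = 0.00839), but its call was lost without any of the 3 NMP libraries or any of 12 libraries of day 6 and without the 5 libraries with the fewest genes, with adjusted p = 0.115 without NMP replicate 2. Gadd45g, a stress and differentiation gene linked to demethylation, fell from 1606 ± 891.1 normalised reads in NMPs to 332.9 ± 167.1 on day 4 (-3.17, adjusted p = 6.63e-10), then rose to 3408 ± 2088 on day 5 (4.11, adjusted p = 6.59e-23). It was above NMPs on day 6 (1.63, adjusted p = 0.000287), with adjusted p = 0.0407 without NMP replicate 2. Of 12 germline genes listed as under promoter methylation, which was not measured here, 2 passed the limit on low values (Sycp1 and Sycp3). Neither was called from NMPs to day 6. The list was not silent in NMPs: Sycp3 averaged 252.5 ± 137.6 normalised reads on day 3 and 16.21 ± 23.13 on day 6. The summed level of the 12 had a median of 303 normalised reads on day 3 and 26.5 on day 6, and Dazl and Asz1 were at 0 in all 65 libraries.

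Genes of other cell types were read in the same way. The progenitor sorts were gated on SOX2+ cells, and how far this gate removed neurons or feeder fibroblasts was not tested. Of 8 neuronal genes, Elavl4 alone was called from NMPs to day 6 (6.22, adjusted p = 2.23e-09), with a median of 0.89 for the list. By single steps, 3 rose and 1 fell from day 4 to day 5 (median 1.439, against 0.014 for all genes). From day 5 to day 6, 2 rose (median 1.853, against 0.004 for all genes). The summed level of the list ranged from 1680 to 2210 normalised reads in NMPs, then 563 to 1960, 240 to 2820 and 1850 to 7380 on days 4, 5 and 6, and day 6, when the mean of Dnmt3b was lowest and that of Tet2 highest, also had the highest median of this sum (4060). Of 8 fibroblast genes, which would mark feeder cells, 4 were tested and 0 were called from NMPs to day 6, with a median of -1.81. From day 5 to day 6, 1 of the 4 rose, with a median of -0.822. This was Col3a1, at 6.61 ± 32.21 normalised reads on day 5 and 86.39 ± 105.6 on day 6. The summed level of the 8 ranged from 48.9 to 421 on day 3 and 1.06 to 739 on day 6, and 3 of the 8 were at 0 in all day 6 libraries. Of 8 endoderm and mesoderm genes, 3 were tested and Cxcr4 rose (3.65, adjusted p = 0.000237, or 0.0162 without NMP replicate 1), with a median of 1.02. That list summed to 24.8 to 95.9 on day 3 and 27.8 to 632 on day 6, and Sox17, Gata4, Gata6, Msgn1 and Mesp1 were too low to test. Their part in the members' changes was not tested. The 4 NMP genes all fell, with a median of -8.95, and 4 of the 5 genes for sorted proteins rose, with a median of 6.49: Pax6 (7.32), Olig2 (6.94), Nkx6-1 (6.49) and Sox2 (2.67). Under DESeq2 Cdx2, Nkx1-2 and Fgf8 were not called, and under edgeR Olig2 and Nkx6-1 were not.

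Genes with the most similar pattern were sought over the 25 group means among 10173 genes with a mean of at least 100 normalised reads, by Pearson correlation of log2 values. Group means share libraries' depth and the day of sampling, so the values are a description. For Pou5f1 the nearest were T (r = 0.829), Notum (0.797) and Trmt1 (0.773), and for Utf1 they were Notum (0.874), T (0.873) and Ptk7 (0.809). Those of Sall4 were Poglut3 (0.906), Rps4l (0.866) and Rdh10 (0.849). Dnmt3b was nearest to Tceal8 (0.917), Mak16 (0.889) and Tufm (0.862), and Tet1 to Lpcat4 (0.811), Polr2g (0.807) and Dnmt3b itself (0.791). Tet2 was nearest to Asap1 (0.897), Cdc37l1 (0.891) and Gdpd5 (0.882), and Tet3 to Cbfa2t2 (0.801), Rfx1 (0.726) and Rbmx (0.723). For Dnmt1 the nearest were Efnb3 (0.83), Col18a1 (0.782) and Fam216a (0.745), for Dnmt3a Zfp827 (0.703), Ntn1 (0.701) and Ddr1 (0.673), and for Uhrf1 Rad50 (0.776), Pold1 (0.776) and Plscr1 (0.765). Among the members, the closest pairs were Pou5f1 with Utf1 (0.809) and Dnmt3b with Tet1 (0.791).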

How the data were processed

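Reads from 65 fixed, stained and sorted samples were aligned by the authors with STAR to mm10 plus spike-ins in the nf-core rnaseq pipeline and counted per refGene gene with featureCounts, leaving out marked duplicates. The strand setting is not given in the sources used here. Libraries that failed the authors' quality control were removed. The submitters' processing notes name mm10 and featureCounts. The deposited signal is counts divided by 1 size factor per library (normalised reads): 100.0% of 834400 values above 0 gave whole reads within 0.001 read, 1 read being worth 0.717 to 1.359. Libraries held 7615114 to 13484815 reads without molecular identifiers, so floors of 3 reads cover counting error only.

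log2(value + 1) was tested with limma 3.58.1 (R 4.3.3) in a fit of 25 group means over 13964 genes whose mean reached 10, with a trend, and day and type changes weight conditions equally. Replicates are separate differentiations by the study's methods. Alternatives included edgeR 4.0.16 and DESeq2 1.42.0 on recovered reads, other filters, scalings and pseudocounts, array weights, the compared libraries alone and each library left out. Ratios were tested by permutation (exact, or 100000 resamples). Scripts were tested on simulated data.

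The members and lists were chosen with earlier results of these data known. Named were the 10 members, up to 4 called genes per list with the largest change from NMPs to day 6, and the 3 most similar genes per member. Other gene names are those of untested or marker genes and of the tested germline genes. A called gene of the primed list is not reported here. Lists covered naive and primed pluripotency, POU and SALL paralogs, other methylation genes, germline genes, DNA replication, neurons, fibroblasts, endoderm and mesoderm, NMPs and sorted proteins.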

Additional observations from a re-analysis of the deposited data

Results flagged for a closer look

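The change of Gadd45g from day 4 to day 6 differed between cell types: it was larger in p3 and pMN than in p2 and p0-1 by 2.11 on the log2 scale (SE 0.372, adjusted p = 0.000255, interaction contrast in limma). In p3 and pMN the mean went from 342.7 ± 188.0 normalised reads on day 4 (n = 8) to 5261 ± 2384 on day 6 (n = 10), and in p2 and p0-1 from 323.0 ± 155.7 (n = 8) to 4371 ± 1838 (n = 12), and all 4 conditions of each pair rose. The lowest day 4 value in p3 and pMN was 0, in replicate 3 of p3 at 100 nM, the only library of its group and the library with the fewest genes (9718). Without that library the difference was 0.14 (SE 0.387, adjusted p = 0.972), and without the 5 libraries with the fewest genes, which include it, 0.19 (adjusted p = 0.961). It was 1.30 (adjusted p = 0.0564) with a pseudocount of 10 and 1.38 (adjusted p = 0.0955) under quantile normalisation.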

How the results depend on the processing

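Of 209 values of the 21 main results under other settings, 195 kept their direction and their side of the threshold or stayed within 1.5 times the count, as did 1347 of 1365 values with 1 library left out. No called value among these changed sign, while the day 5 to day 6 step in the ratio of Tet3 to Tet1, which was not called, ranged from -0.036 to 0.382. Counts of members called from NMPs to day 4 (2) became 0 with a limit of a mean of at least 100, where Pou5f1 and Utf1 are not tested, 4 with array weights and 0 with DESeq2. From NMPs to day 6 (5) they became 3 with that limit and 3 in the fit of the compared libraries alone. With an adjusted p below 0.05 and no limit on the fold they became 2 from day 4 to day 5, 5 from day 5 to day 6, 2 for p3 against pMN and 1 for p3 against p0-1. For p3 against pMN the count of 1 became 0 in edgeR and in the fit of the compared libraries alone, and for p3 against p2 it became 0 in the latter. For p3 against p0-1 the count of 0 became 1 with DESeq2 (Tet1). Leaving out the 5 libraries with the fewest genes, an alternative chosen after seeing the data, gave 0 for p3 against p2. With 1 library left out, counts ranged from 0 to 1 from day 5 to day 6, for p3 against pMN, p3 against p0-1, pMN against p2, p2 against p0-1 and p2 at 100 against 10 nM, and from 1 to 2 for p3 against p2. The day 3 to day 4 step in the ratio of Dnmt3a to Dnmt3b ranged from 1.054 to 1.654. Where the causes are not stated above, they were not tested.

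Deviations of same-numbered libraries had a median correlation of 0.016, and 5 of 634 pairs exceeded 0.1. For libraries with different numbers these were -0.008 and 0 of 1262. Several cell types came from the same dish in the study's design, so a weak correlation does not show that libraries are unpaired. The main fit treated libraries as separate units. With the replicate block, 2 members were called from NMPs to day 4, and all 21 main results and 10 of 10 gene results kept their call. Depth limits low levels: 1 read was worth up to 1.359 normalised reads, so that Utf1 and Pou5f1 at 0 after day 4 allow up to 3 reads per library.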
